A study of Mus musculus with 21 samples.

Results

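CEBPB(V285A), a point mutant of the bZIP transcription factor CEBPB, was compared with CEBPB on DNA that carried 5-hydroxymethylcytosine (5hmC), using 2 protein binding microarrays for CEBPB(V285A) and 2 for CEBPB. These 4 arrays were chosen by their labels, as all arrays of both proteins on 5hmC, out of 21 arrays in 10 groups. The other arrays held CEBPB(V285A) on cytosine (C) or 5-methylcytosine (5mC), and CREB1 or CREB1(A297V) on C, 5mC or 5hmC. CEBPB was analysed here on 5hmC alone, so whether a difference between the proteins exists only on 5hmC was not tested. Both proteins were DNA-binding domains with a GST tag, made by transcription and translation in vitro, and the mutant construct came from the wild-type one by site-directed mutagenesis. In a protein binding microarray the tagged protein is bound to many double-stranded probes and read by fluorescence. The second strand of each probe was made by primer extension with 5hmC, so that cytosines were hydroxymethylated on the synthesised strand and unmodified on the printed strand (hemi-hydroxymethylated DNA). The labels do not say whether replicates used separate protein preparations, so the p-values cover only the spread between replicate arrays, which may be technical. That spread was estimated over the replicates of all groups, so an SE can be smaller or larger than the 4 arrays alone would give.

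bZIP proteins bind DNA as dimers, with a basic helix of each monomer reading a half-site of a near-palindromic sequence. C/EBP factors are known for palindromes of the half-site GCAA, CREB1 for the cyclic AMP response element (CRE) with GTCA, and PAR bZIP factors for GTAA. The valine replaced in CEBPB(V285A) lies in the basic region, at a position where CREB1 carries alanine. C/EBP factors also form dimers with ATF factors, which bind the composite site TGATGCAA. 5hmC is an oxidised form of 5mC.

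The readout was the authors' deposited Z-score, given for 65535 8-mers (runs of 8 bases), a relative preference within an array whose median was 0 on each of the 4 arrays. All sequences are written as the synthesised strand from 5′ to 3′, so that each C in a name stands for 5hmC and each G faces an unmodified cytosine of the printed strand. An 8-mer and its reverse complement therefore differ in which cytosines are modified. That the printed strand was the template was assumed and not tested. If it were not, each 8-mer would trade places with its reverse complement. To show what the proteins met, 1 probe is given for the highest 8-mer of each protein and for the palindromes of each half-site, the brightest over the 4 arrays that carried the site. Each is the 35 variable bases of the synthesised strand, with the 8-mer in capitals.

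Probe with TTATGCAA, highest for CEBPB(V285A): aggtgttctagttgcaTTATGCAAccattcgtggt

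Probe with TTGCGTAA, highest for CEBPB: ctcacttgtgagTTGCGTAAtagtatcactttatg

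Probe with the C/EBP palindrome TTGCGCAA: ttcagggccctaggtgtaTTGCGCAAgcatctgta

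Probe with the PAR palindrome TTACGTAA: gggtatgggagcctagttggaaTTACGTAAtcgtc

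Probe with the CRE palindrome TGACGTCA: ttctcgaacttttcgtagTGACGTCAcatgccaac

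The TTATGCAA probe had median spot intensities of 61560 and 15030 on the CEBPB(V285A) arrays, against 8835 and 2735 on the CEBPB arrays. The TTGCGTAA probe ran the other way, with 7033 and 10220 on the CEBPB(V285A) arrays and 25600 and 23280 on the CEBPB arrays. The TGACGTCA probe gave 5877 and 4913 for CEBPB(V285A), but 20400 and 2673 on the 2 CEBPB arrays. A single probe carries other sequence besides its site, and these intensities, not background-subtracted, describe the probes printed and were not tested.

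The arrays of the proteins differed in scale, which bears on every difference in Z-score below. The median spot intensity was 295 and 292 on the CEBPB(V285A) arrays and 580 and 538 on the CEBPB arrays, and the median local background was 113 and 145 against 401.5 and 300.0. The Z-score exceeded by 0.1% of all 8-mers was 24.6 and 16.5 for CEBPB(V285A), against 7.88 and 8.88 for CEBPB, so a given rank stood at a higher Z-score in the mutant. Across the 64511 8-mers with at least 8 probes, Pearson's r was 0.840 between the CEBPB(V285A) arrays and 0.798 between the CEBPB arrays, and 0.453 to 0.546 between arrays of different proteins. The array names gave the series number 534 for both CEBPB(V285A) arrays and 535 for both CEBPB arrays, so array series and protein cannot be told apart.

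**Figure D1:**
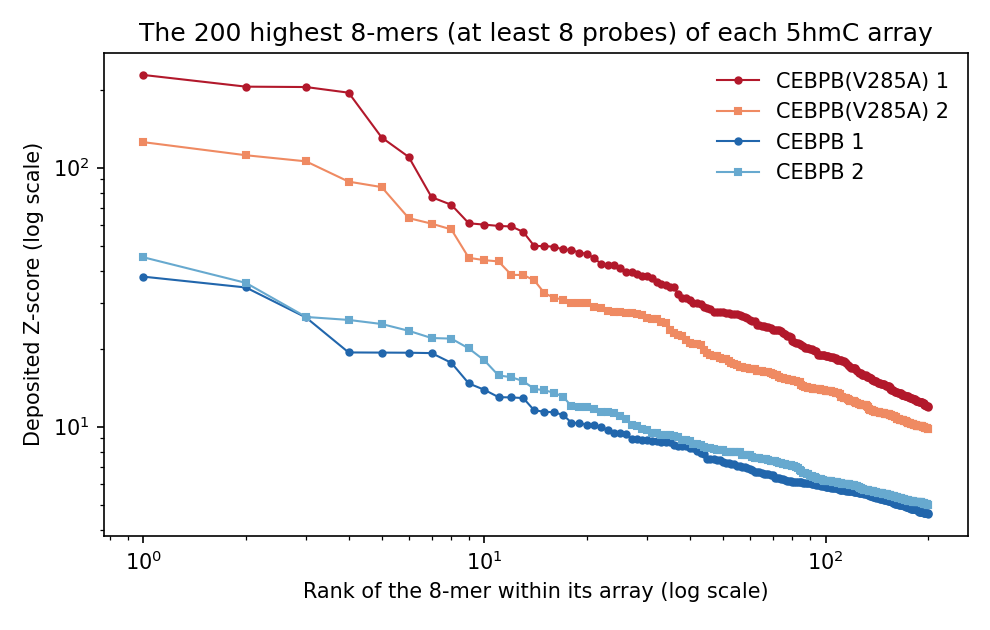
Deposited Z-score (log axis) of the 200 highest 8-mers with at least 8 probes on each array against rank (log axis), with CEBPB(V285A) arrays in red and orange and CEBPB arrays in blues. Both CEBPB(V285A) curves lie above both CEBPB curves over the ranks drawn.

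The CEBPB arrays differed from each other at sequences that CREB1 favours. Of the 20 8-mers highest for CREB1 on 5hmC, 18 were higher on CEBPB array 1 than on CEBPB array 2, with medians of 8.89 and 1.21. Over all 64511 8-mers with at least 8 probes 31843 were, and 7 of the 20 highest for CEBPB(V285A) on 5hmC. The 20 highest for CREB1 had medians of 14.0 and 8.70 on the CEBPB(V285A) arrays and 47.5 and 52.3 on the CREB1 arrays. Those CREB1 arrays shared the array series number of the CEBPB arrays. The palindrome TGACGTCA stood at 8.74 on CEBPB array 1 and at −0.65 on CEBPB array 2. The part of this in the comparisons was not tested, and counts are given without each array below.

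CEBPB(V285A) had its highest mean Z-scores on 5hmC at TTATGCAA, TTATGTAA, TTACGCAA, TGACGTAA, TTACGTAA and TGATGCAA, in that order, and the first 3 begin with TTA and end in GCAA or GTAA. CEBPB ranked TTGCGTAA, TTGCGCAA and TTACGTAA highest among 8-mers with at least 8 probes. The 8-mers above them, at ranks 1 and 2, were each carried by fewer than 8 probes. Of the 100 8-mers with the highest means, again with at least 8 probes, the proteins shared 26, while replicate arrays shared 71 for CEBPB(V285A) and 53 for CEBPB.

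Among those 100, GTAA was in 50 for CEBPB(V285A) and in 28 for CEBPB, and GCAA in 32 against 20. The reverse complement of the C/EBP core, TTGC, was in 3 for CEBPB(V285A), against 36 for CEBPB. On single arrays TTGC was in 3 and 5 of the 100 highest for CEBPB(V285A) and in 26 and 43 for CEBPB, so the arrays did not overlap between the proteins. TTAC, the reverse complement of the PAR core, was in 6 for each protein. The tetramer GAAA was in 0 of the 100 for CEBPB(V285A) and in 14 for CEBPB. TGAC, the reverse complement of the CRE core, was in 3 and 3 on the CEBPB(V285A) arrays, and in 18 on CEBPB array 1 but 1 on CEBPB array 2. GTAA was in 51 and 50 on the CEBPB(V285A) arrays and in 21 and 30 on the CEBPB arrays, and GCAA in 30 and 30 against 22 and 14. The counts on single arrays rest on ranks within an array and do not depend on its scale, whereas those from group means depend on the scale of the replicates.

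**Figure D2:**
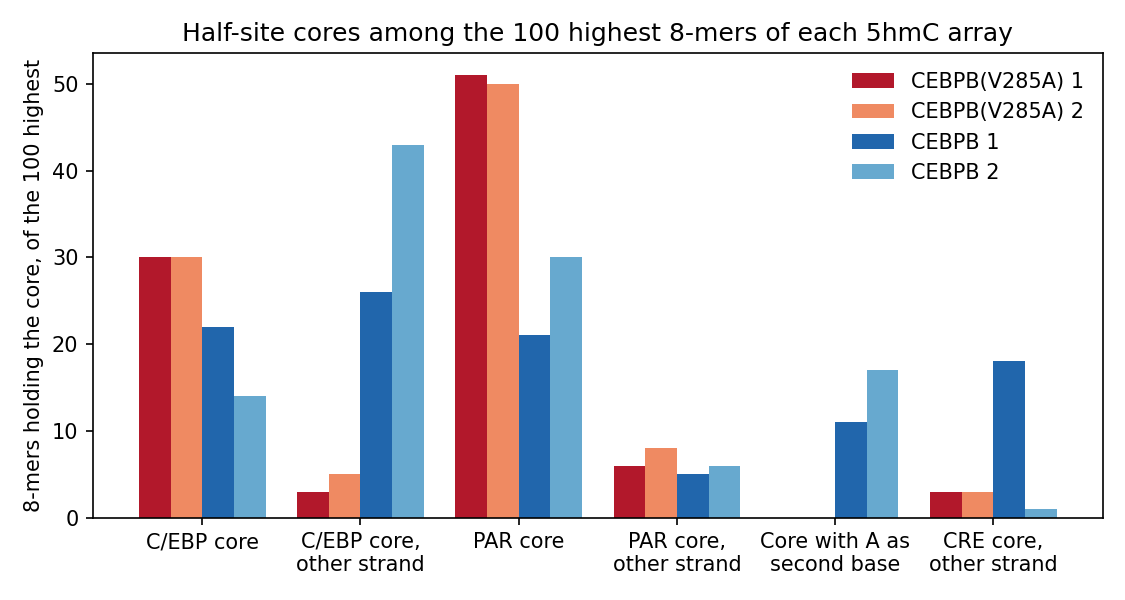
Number of 8-mers, of the 100 with the highest Z-score and at least 8 probes on each array, that hold GCAA (C/EBP core), TTGC (its other strand), GTAA (PAR core), TTAC (its other strand), GAAA (core with A as second base) or TGAC (other strand of the CRE core). TTGC and GAAA are more frequent on both CEBPB arrays (blues) than on both CEBPB(V285A) arrays (red and orange), and the TGAC bar is tall on CEBPB array 1 alone.

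With limma on all 21 arrays and Benjamini-Hochberg adjustment over all 65535 8-mers, 1705 8-mers differed between CEBPB(V285A) and CEBPB at an adjusted p under 0.05, which is 2.6% of those tested. Of these, 1255 (1.92%) were higher and 450 (0.687%) lower in CEBPB(V285A). The split followed the scale. With each array divided by that Z-score (scaled arrays) there were 155 higher and 452 lower, after quantile normalization 763 and 767, and after background correction by normexp on the log2 scale 2403 and 2202. The count also rested on the spread shared with the other groups, since limma on the 4 arrays alone called 0 8-mers, with 8627 at an unadjusted p under 0.05. In all 1705 the arrays did not overlap between the proteins, so a lack of overlap adds no support to a call. The share without overlap over all 8-mers is not given here. Without CEBPB array 1 there were 573 calls (435 higher and 138 lower), and without CEBPB array 2 there were 506 (429 higher and 77 lower). Of those, 531 and 488 were among the 1705.

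**Figure D3:**
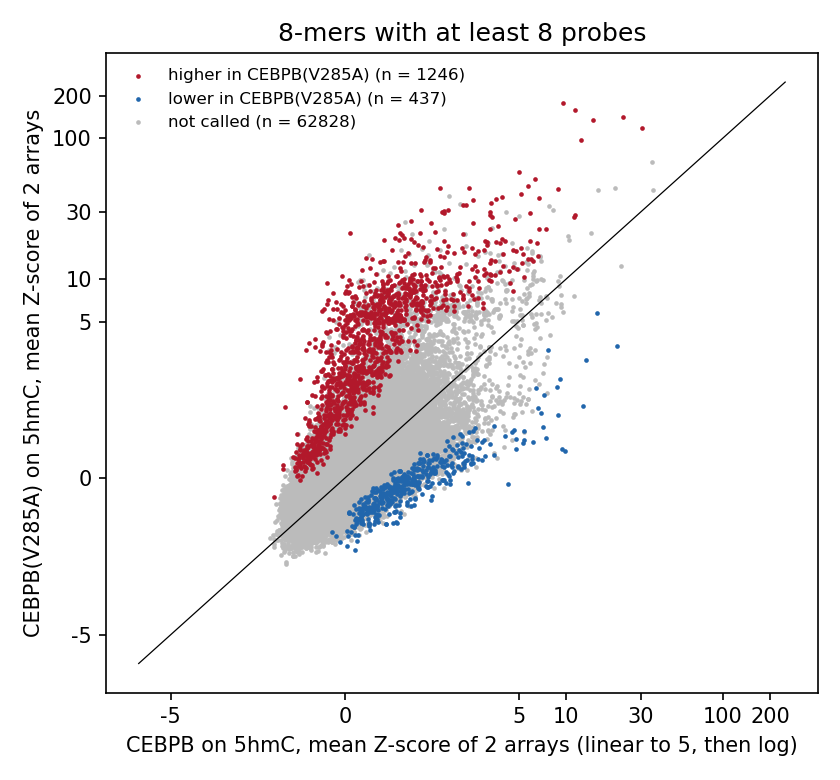
Mean Z-score of each of 64511 8-mers with at least 8 probes, CEBPB(V285A) on the vertical and CEBPB on the horizontal axis (2 arrays each, linear to 5 and logarithmic beyond), with the line of equal values. Of the points, 1246 called higher in CEBPB(V285A) (red) and 437 called lower (blue) lie on opposite sides of the line, and the uncalled points (grey) include values high in both proteins.

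The cores of the called 8-mers differed by direction. GTAA was in 329 of the 1255 higher and in 1 of the 450 lower 8-mers, against 1279 of all 65535. GCAA was in 81 higher and 2 lower. TTGC was in 8 higher and 14 lower, and TTAC in 78 higher and 3 lower. GAAA or its reverse complement TTTC was in 90 of the 450 lower 8-mers (20.0%), against 3.90% of all 8-mers. This last tetramer was chosen after its values were seen.

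The C/EBP half-site was described first through its palindrome. TTGCGCAA, the site C/EBP dimers are known for, had Z-scores of 76.9 and 57.7 in CEBPB(V285A), against 34.4 and 35.9 in CEBPB. The arrays did not overlap, but the difference of 32.1 ± 8.04 (SE) missed the threshold (limma, adjusted p = 0.0511). Its rank in the group mean was 7 for CEBPB(V285A) and 4 for CEBPB. The median intensity of its 17 probes was 7.79 and 7.82 times the array median in CEBPB(V285A), against 6.21 and 6.11 times in CEBPB. The difference was 41.7 without CEBPB(V285A) array 2, and it was called with scores recomputed from probe intensities (36.8, limma, adjusted p = 0.0244). After normexp and after asinh it was positive and not called. On scaled arrays and after quantile normalization it was negative and not called, so no direction can be given for this palindrome.

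The largest rise was at TTATGCAA, a C/EBP half-site with TG in place of the central CG. Its Z-scores were 228 and 125 in CEBPB(V285A), against 13.0 and 6.19 in CEBPB. Both mutant arrays lay far above both wild-type arrays, and also far apart from each other. The difference was 167 ± 20.6 (limma, adjusted p = 0.000582), and the rank was 1 against 44. Its 18 probes had a median intensity of 21.1 and 14.3 times the array median in CEBPB(V285A), against 3.07 and 1.78 times in CEBPB. The call held after scaling, quantile normalization and normexp, and without any 1 of the 4 arrays.

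TTACGCAA joins a PAR half-site, TTAC on this strand, to the C/EBP half-site. It stood at 194 and 88.2 in CEBPB(V285A) and at 19.3 and 26.5 in CEBPB. The arrays did not overlap, and the difference was 118 ± 20.7 (limma, adjusted p = 0.00723). Without CEBPB array 1 the adjusted p was 0.0684 and without CEBPB array 2 it was 0.0568, with differences of 115 and 122, and the call was also lost after quantile normalization and normexp. Without CEBPB(V285A) array 1 the difference was 65.3. Its reverse complement TTGCGTAA, the highest of CEBPB, had 59.5 and 26.1 in CEBPB(V285A), against 26.4 and 45.1 in CEBPB. There the arrays overlapped, the difference of 7.11 ± 8.62 was not called (limma, adjusted p = 0.780), and on scaled arrays it was −2.22 (adjusted p = 0.0462).

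The PAR half-site was higher in the mutant in several contexts. TTACGTAA, the PAR palindrome, had Z-scores of 131 and 106 in CEBPB(V285A), against 37.9 and 23.4 in CEBPB. The arrays did not overlap, and the difference was 87.4 ± 8.09 (limma, adjusted p = 6.8e-05). The palindrome ranked 5 in both proteins, and on scaled arrays the difference of 2.12 had an adjusted p of 0.320, after quantile normalization 0.833 and after normexp 0.375. TTATGTAA, which has no cytosine on the synthesised strand, stood at 205 and 112 in CEBPB(V285A), against 11.4 and 11.4 in CEBPB. Both mutant arrays were far above the wild-type ones, the difference was 147 ± 19.2 (limma, adjusted p = 0.000894), and the rank was 2 against 34. This call also held on scaled arrays, after quantile normalization, after normexp and without any 1 array.

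TGACGTAA, which joins TGAC of the CRE to the PAR half-site, had 204 and 63.8 in CEBPB(V285A), against 14.7 and 15.0 in CEBPB. The mutant arrays lay above the wild-type ones but more than 100 apart, and the difference was 119 ± 28.1 (limma, adjusted p = 0.0385). Without CEBPB array 1 or 2 the adjusted p was 0.173 and 0.188, and the call was also lost after normexp. The difference was 49.0 without CEBPB(V285A) array 1 and 190 without array 2. TGACATAA, with no CpG, stood at 61.0 and 27.2 against 1.98 and 3.50, a difference of 41.4 ± 7.14 (limma, adjusted p = 0.00679) that was not called without CEBPB array 1 (adjusted p = 0.0654) or array 2 (0.0585). Without CEBPB(V285A) array 1 it was 24.5. Its rank was 14 in CEBPB(V285A) and 1258 in CEBPB.

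The composite site TGATGCAA of C/EBP and ATF factors had Z-scores of 110 and 84.0 in CEBPB(V285A), against 19.2 and 5.66 in CEBPB. The mutant arrays were both higher, by a difference of 84.5 ± 8.68 (limma, adjusted p = 0.000134), and the rank was 6 against 29. Quantile normalization took the call away (adjusted p = 0.168). CREB1 on 5hmC stood at 141 and 171 at this site, where CEBPB array 1 was above CEBPB array 2. TGACGCAA, the CRE and C/EBP half-sites joined at CpG, had 42.0 and 60.7 in CEBPB(V285A) and 9.73 and 2.85 in CEBPB. That difference of 45.1 ± 9.12 (limma, adjusted p = 0.0174) was not called without CEBPB array 1 (adjusted p = 0.0768), CEBPB array 2 (0.143) or CEBPB(V285A) array 2 (0.0852), nor on scaled arrays, after quantile normalization or after normexp.

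The CRE half-site GTCA at the 3′ end gave low Z-scores in both proteins. TGACGTCA, the CRE palindrome, had 10.8 and 6.48 in CEBPB(V285A), against 8.74 and −0.65 in CEBPB, with overlapping arrays and a difference of 4.58 ± 12.3 (limma, adjusted p = 0.924). On C, CEBPB(V285A) stood at 174 and 135 at this palindrome, and CREB1 on 5hmC at 19.1 and 38.5. TTACGTCA had a mean of 6.30 in CEBPB(V285A) and 1.79 in CEBPB, and TTGCGTCA 2.79 against 0.82, and neither was called. No direction is given for these 3, because the sign of TGACGTCA turned with the scale and the other differences were smaller than their SE. At TTACGTCA the arrays did not overlap, with 6.56 and 6.05 in CEBPB(V285A), against 2.54 and 1.03 in CEBPB. Its difference of 4.52 had an SE of 9.67, which rests on the spread over all groups. TTGTGTCA was called higher, with 3.29 and 3.47 in CEBPB(V285A), against 1.08 and 0.90 in CEBPB (2.40 ± 0.548, limma, adjusted p = 0.0341), but not on scaled arrays, after quantile normalization or without any 1 of the 4 arrays. TTGCATCA, which holds no GTCA and is the reverse complement of TGATGCAA, had 4.19 against 2.89, was not called and turned its sign with the scale.

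The named falls were at sequences with GAAA or its reverse complement, and CEBPB(V285A) was low at the same 8 sequences on C and 5mC too, with group means of −0.63 to 3.09. TTGCGAAA, the C/EBP palindrome with GAAA in place of one GCAA, had Z-scores of 4.61 and 3.81 in CEBPB(V285A), against 17.6 and 24.9 in CEBPB. Both mutant arrays were below both wild-type arrays, as the rule that named these 8 falls required. The difference was −17.1 ± 1.71 (limma, adjusted p = 0.000107), and the rank was 1323 against 10. On the mutant's C and 5mC arrays its means were 2.77 and 3.09. Its 19 probes had a median intensity of 1.40 and 1.35 times the array median in CEBPB(V285A), against 3.79 and 3.98 times in CEBPB, and the call held on scaled arrays, after quantile normalization, after normexp and without any 1 array, but not after asinh (adjusted p = 0.143).

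TTTCAAAA had the smallest adjusted p among the named falls, with 0.88 and 0.95 in CEBPB(V285A), against 9.47 and 9.29 in CEBPB. The replicates lay close together and the proteins apart, by −8.46 (limma, adjusted p = 4.4e-06). The other 6 falls named by the rule were GAAATCCT (−10.4), TTGTGAAA (−10.0), GAAATTCT (−9.64), TTTCGAAA (−8.94), GAAACACT (−6.82) and TGTCGAAA (−6.13), and each of the 8 held GAAA or TTTC. Without CEBPB array 2, TTGTGAAA (−5.79, adjusted p = 0.0559), GAAATTCT (−5.06, 0.120), TTTCGAAA (−5.68, 0.0543) and GAAACACT (−3.74, 0.157) were no longer called. The same 4 missed the threshold without CEBPB(V285A) array 2, and GAAATTCT and GAAACACT also without CEBPB(V285A) array 1. After asinh 5 of the 8 were not called, TTGCGAAA, GAAATCCT (adjusted p = 0.0881), TTGTGAAA (0.199), GAAATTCT (0.112) and GAAACACT (0.187). TTGCACAA, ranked 8 in CEBPB, had 8.15 and 16.5 in CEBPB(V285A) and 19.3 and 25.8 in CEBPB, a difference of −10.2 that was not called (limma, adjusted p = 0.0957), but was called lower on scaled arrays (adjusted p = 0.00146), after quantile normalization (0.000102) and after normexp (0.0043).

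The bases at each end were set against each other in 36 8-mers, made of TTG, TTA or TGA on the left, CG, TG or CA in the centre, and CAA, TAA, TCA or AAA on the right. The AAA ending was added after the values were seen. Of 9 8-mers each, those called higher in CEBPB(V285A) numbered 4 with CAA, 7 with TAA, 1 with TCA and 0 with AAA. Over all 8-mers 1.92% were called higher and 0.687% lower. On scaled arrays CAA had 3 higher and 1 lower, TAA 4 and 1, TCA 0 and 0, and AAA 0 and 4. After quantile normalization these counts were 2 and 1, 4 and 0, 0 and 0, and 0 and 5. On the deposited scale the 3 called lower all had TTG on the left and AAA on the right: TTGCGAAA, TTGTGAAA and TTGCAAAA (−5.91). The 6 other 8-mers ending in AAA, with TTA or TGA on the left, had differences from −1.60 at TTACGAAA to 3.33 at TTACAAAA and none was called. TTGCGAAA, TTGTGAAA and TTGCAAAA were called lower on scaled arrays, after quantile normalization and after normexp too, where TTA and TGA on the left gave at most 2 lower calls of 12 each. Of the same 3, 0 were called after asinh, 1 with the 10 arrays on 5hmC, and 2 without CEBPB array 2 or CEBPB(V285A) array 2.

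Other 8-mers of this set moved in the same direction as the named rises. TGATGTAA had 49.8 and 38.5 in CEBPB(V285A), against 2.70 and 4.42 in CEBPB, a difference of 40.6 ± 3.98 (limma, adjusted p = 9.3e-05), and TTGTGTAA 27.1 and 27.7 against 8.73 and 13.8 (16.1 ± 2.05, adjusted p = 0.000748). TTGCATAA, the reverse complement of TTATGCAA, had 29.9 and 44.8 in CEBPB(V285A) and 5.91 and 7.53 in CEBPB (30.6 ± 4.25, adjusted p = 0.0014), a call lost on scaled arrays, after quantile normalization and after asinh. At each of these the mutant arrays were both higher. On scaled arrays and after asinh, 0 of the 12 8-mers with TTG on the left were called higher, so the TTGTGTAA call was lost too. TTACATAA had 49.5 and 36.7 against 10.2 and 21.9 and was not called (27.1 ± 7.42, adjusted p = 0.0746). GTAATCGT, among the 8 highest of CEBPB, had 60.2 and 28.8 against 19.3 and 22.0 and was not called either (adjusted p = 0.0864), but was without CEBPB(V285A) array 2 (39.6, adjusted p = 5.5e-05).

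Over all 64 8-mers of each half-site, the PAR half-site after TG had the most calls. Of the 64 ending in TGTAA, 24 were higher and 0 lower in CEBPB(V285A), with a median difference of 2.62 in Z-score, against 1.92% higher and a median of 0 over all 8-mers. Of those ending in CGTAA, 15 were higher and 0 lower (median 1.83), in TGCAA 11 and 0 (1.29), and in CGCAA 6 and 0 (1.54). The CRE endings CGTCA and TGTCA had 0 and 1 higher and 0 lower. On scaled arrays 8 of the TGTAA 8-mers were higher and 1 lower, and after quantile normalization 15 and 1. On the same scales CGTAA had 1 higher and 1 lower, then 6 and 0, TGCAA 3 and 1, then 9 and 4, and CGCAA 1 and 0, then 4 and 0. Without CEBPB array 1 or 2 the higher calls numbered 16 and 15 for TGTAA, 8 and 6 for TGCAA, 5 and 4 for CGTAA, and 1 and 1 for CGCAA. Without CEBPB(V285A) array 1 those for CGTAA numbered 6.

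The reverse complements of the C/EBP and PAR half-sites, at the 5′ end, had fewer higher calls than those half-sites on the deposited scale. Those beginning with TTACG had 9 higher and 0 lower of 64 (median 0.93), with TTACA 3 and 0 (0.89), with TTGCG 0 and 2 (−0.08) and with TTGCA 1 and 2 (−0.33). On scaled arrays TTACG had 3 higher and 1 lower, more higher calls than the 1 of CGTAA, and TTACA had 0 and 0, TTGCG 0 and 3, and TTGCA 0 and 6. Without CEBPB array 1 or 2 TTACG had 2 and 2 higher, and without CEBPB(V285A) array 1 it had 5. Of the 24 single mismatches of TTACGTAA, 5 were higher and 0 lower (median 4.45), and of those of TTGCGCAA 1 and 1 (median 1.29).

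The E-box CACGTG, bound by basic helix-loop-helix factors, had 0 called of 48 8-mers, and the ETS core 1 higher and 1 lower of 95, which is near the 1.92% higher and 0.687% lower of all 8-mers. AP-1 sites, bound by FOS and JUN factors, had 1 higher of 16 (6.25%) and 0 on scaled arrays. Composite C/EBP and ATF 8-mers had 5 higher and 0 lower of 30 (16.7% higher, median 1.02), and 1 higher without CEBPB array 1 or 2. The 255 8-mers of A and T alone had 32 higher and 1 lower (median 0.55), but 5 and 2 on scaled arrays. The share called higher was 4.62% of the 6560 8-mers without C, 2.75% with 1 C and 1.43% with 2. It was 0.977% with 3 and 0.630% with 4 or more. The share called lower fell too, from 0.854% without C to 0.416% with 4 or more. On scaled arrays the 8-mers without C had 28 higher and 94 lower, against 155 and 452 over all 8-mers.

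The strand on which the 5hmC lay was compared within each array, as the Z-score of an 8-mer minus that of its reverse complement. With limma over 32639 such pairs, 730 pairs (2.24%) differed in this asymmetry between CEBPB(V285A) and CEBPB, and in 505 (1.55%) it was higher and in 225 (0.689%) lower in the mutant, in the orientation with GCAA, GTAA or GTCA first where 1 member held one. Here limma on the 4 arrays alone called 451 pairs. Without CEBPB array 1 there were 295 calls, without CEBPB array 2 there were 207, and without CEBPB(V285A) array 1 there were 481.

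TTATGCAA exceeded its reverse complement TTGCATAA by 198 and 80.5 in CEBPB(V285A), against 7.05 and −1.34 in CEBPB. The change was 136 ± 20.5 (limma, adjusted p = 0.000626). TTATGTAA exceeded TTACATAA by 156 and 74.8 in CEBPB(V285A), against 1.19 and −10.4 in CEBPB (120 ± 13.4, adjusted p = 2.8e-05). In both pairs both mutant arrays lay above both wild-type arrays. TTATGCAA and its reverse complement each hold 1 C, whereas TTATGTAA holds none and TTACATAA 1. Without CEBPB(V285A) array 1 the changes were 77.7 and 79.5. On C, where neither strand is modified, CEBPB(V285A) had mean differences of −27.1 and −26.3 for these pairs, opposite in sign to those on 5hmC.

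TGATGTAA exceeded TTACATCA by 46.0 and 31.2 in CEBPB(V285A), against −2.37 and 1.51 in CEBPB (39.0 ± 3.00, limma, adjusted p = 1.4e-07). TACGTAAT exceeded ATTACGTA by 57.2 and 28.3, against 0.89 and 0.32 (42.2 ± 5.36, adjusted p = 0.000116), and both have 1 C. TGACGTAA exceeded TTACGTCA by 198 and 57.7, against 12.1 and 13.9 (115 ± 28.8, adjusted p = 0.0394), which was not called without CEBPB array 1 (adjusted p = 0.192) or array 2 (0.201). The wild-type arrays were lower than the mutant arrays in all 3 pairs. Without CEBPB(V285A) array 1 the changes at TACGTAAT and TGACGTAA were 27.7 and 44.7, and without array 2 that at TGACGTAA was 185. The TGACGTAA pair was also not called on scaled arrays (adjusted p = 0.776), after quantile normalization (0.978) or after normexp (0.0854). On C, CEBPB(V285A) had mean differences of −8.30 at TGATGTAA, 24.8 at TACGTAAT and 24.8 at TGACGTAA, so that only the first had the opposite sign to 5hmC. TTACGCAA and TTGCGTAA differed by 135 and 62.1 in CEBPB(V285A) and by −7.04 and −18.6 in CEBPB, and the change of 111 ± 37.9 was not called (limma, adjusted p = 0.155). CEBPB(V285A) had the same sign on C, with 77.8 and 61.8. It was called on scaled arrays (adjusted p = 8.2e-06), after quantile normalization (0.017) and after normexp (5.7e-05). The pairs of TGATGCAA (83.2 ± 83.2) and TGACGCAA (43.1 ± 16.0) were not called either, with mean differences of 28.9 and −27.4 for CEBPB(V285A) on C. On 5hmC the TGATGCAA pair had 106 and 80.0 in CEBPB(V285A), against 16.6 and 2.53 in CEBPB. The TGACGCAA pair had 37.5 and 59.7, against 8.11 and 2.82. The arrays overlapped in neither pair, and each SE rests on the spread over all groups. After normexp the TGATGCAA pair was called (limma, adjusted p = 0.0417) and the TGACGCAA pair was not (0.0750).

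The asymmetry fell most at TTATGTCA against TGACATAA, with −57.5 and −21.1 in CEBPB(V285A) and −0.65 and −2.54 in CEBPB (−37.7 ± 7.25, limma, adjusted p = 0.00624), a call lost without CEBPB array 1 (adjusted p = 0.0883) or array 2 (0.0804). ACTATTAT against ATAATAGT had −42.9 and −17.7 in CEBPB(V285A) and −1.74 and −3.76 in CEBPB (−27.6, adjusted p = 0.000626). ACGATTAT against ATAATCGT had −41.5 and −13.4, against −0.48 and −3.53 (−25.4, adjusted p = 0.00468). In these 3 pairs the second member was the one high in the mutant, and on C the mutant's mean differences had the same sign (−25.8, −7.69 and −15.4). The ACGATTAT pair was not called without CEBPB array 1 (adjusted p = 0.0683) or after normexp (0.0622). Without CEBPB(V285A) array 1 the 3 changes were −19.5, −15.0 and −11.4, and without array 2 the last was −39.5. CCCCGTCG (−22.2) and CCTCCCCG (−17.4) followed, but each is carried by 1 probe, and without CEBPB array 2 they were at −14.8 and −9.94. After asinh, which compresses large Z-scores, the named pairs kept their signs and none was called (adjusted p from 0.0665 to 0.642), and 87 pairs were called in all.

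Over whole half-sites, the median asymmetry of 8-mers ending in TGTAA was 3.42 and 2.57 in CEBPB(V285A), against 0.55 and 0.55 in CEBPB, and 15 of 64 pairs rose and 0 fell. For TGCAA it was 1.36 and 1.50 against 0.13 and −0.94, with 12 rises and 0 falls. For CGCAA it was 1.07 and 1.36 against −0.34 and −0.71, with 8 rises and 0 falls of 63 pairs. The mutant medians lay above both wild-type medians for these half-sites and for CGTAA (9 rises and 2 falls of 63). For CGTCA no pair rose and 2 fell, and for TGTCA no pair rose and 1 fell. Over all pairs 1.55% were called higher and 0.689% lower. The half-site counts are given on the deposited scale alone. Over all pairs the 730 calls there became 192 on scaled arrays and 87 after asinh.

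**Figure D4:**
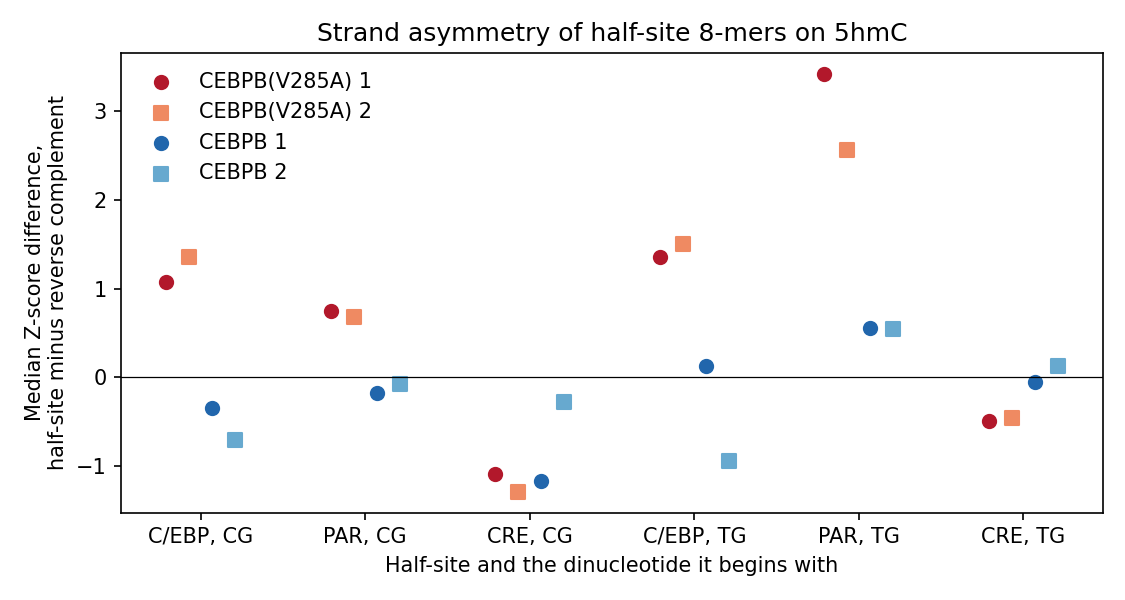
Median difference in Z-score between 8-mers that end in a half-site and their reverse complements, on each array (red and orange, CEBPB(V285A); blues, CEBPB), for the C/EBP, PAR and CRE half-sites preceded by CG or TG on the synthesised strand. The CEBPB(V285A) points lie above the CEBPB points for the C/EBP and PAR half-sites, with the highest at 3.42 and 2.57 for PAR after TG.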

How the data were processed

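The deposited matrix held 1 score per 8-mer and array, a Z-score made by the authors; how it was made from probe signals, and the scanner and feature extraction, are not given in the sources used here. Per the file headers, the deposited signal files held the median intensity of 40330 spots and of their local background, not background-subtracted. The median 8-mer was on 17 probes and the most frequent on 41, while 409 8-mers were on none and had a deposited Z-score of 0. The number of arrays limits the precision.

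Names in the matrix were the printed sequence read backwards (Pearson r with median probe intensity 0.884 to 0.962 on the 4 arrays, at most 0.465 for other readings), and their complements are printed. Limma 3.58.1 in R 4.3.3 fitted the Z-scores of all 21 arrays with 1 coefficient per group (11 residual degrees of freedom), a mean-variance trend and Benjamini-Hochberg adjustment, two-sided, called under 0.05. The spread per 8-mer was shared by all groups. The fit was tested on simulated data. An exact permutation test of 2 against 2 arrays cannot go below 0.333.

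Named 8-mers were 15 sites, up to 8 called 8-mers per direction and 8 per group with at least 8 probes, and up to 5 pairs per direction. The called 8-mers per direction had to have arrays that did not overlap between the proteins. Reverse complements and 8-mers sharing 7 bases were skipped. TTGCAAAA, TTACGAAA, TTACAAAA, TGATGTAA, TTGTGTAA and TTGTGTCA come from the set of 36. Members, sites and lists were chosen with earlier results of these data known. Alternatives were other arrays in the fit, no trend, asinh, division by the Z-score that 0.1% of an array's 8-mers exceed, quantile normalization, scores recomputed from intensities, normexp (offset 50) with log2, a minimum of 8 probes, a replicate block and leaving out each array.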

Additional observations from a re-analysis of the deposited data

How the results depend on the processing

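The 1705 called 8-mers became 0 with only the 4 arrays, 564 with the 10 arrays on 5hmC, 607 on scaled arrays (divided by the Z-score that 0.1% of their 8-mers exceed), 2780 with scores recomputed from probe intensities, 4605 after normexp and log2, and 506 to 1334 without any 1 of the 4 arrays. The 730 called pairs became 451, 420 and 192 under the first 3 of these, 87 after asinh, 2123 after normexp and 207 to 558 without any 1 array. Higher calls were 73.6% of the 1705, but 93.6% with the 10 arrays on 5hmC, 62.5% with recomputed scores, 25.5% on scaled arrays, 49.9% after quantile normalization and 52.2% after normexp. Same-numbered arrays deviated together from their group means only weakly (r = 0.0969 over 8-mers). With 2 arrays per group both pairs give the same value, so it cannot decide whether the numbers pair the arrays. A replicate block gave 3034 8-mers (1797 higher and 1237 lower) and 1547 pairs, and 1656 and 729 of these were among the main calls. The called pair lost under the block was TGACGTAA with TTACGTCA (115, adjusted p = 0.0766), and no other named call changed.

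No named 8-mer or pair that was called changed sign under any alternative run. Differences not called did. TGACGTCA was −0.10 on scaled arrays, −3.66 after quantile normalization, −0.0479 with recomputed scores and between −0.12 and 9.28 without any 1 array, lowest without CEBPB array 2. TTGCGCAA was −0.90 and −19.6 under the first 2 of these, TTGCGTAA −2.22 and −33.9, TTGCATCA −0.13 and −0.31, and GTAATCGT −0.37 and −5.26. TTGCGTAA was also −0.53 after normexp, −2.23 without CEBPB array 1 and −9.60 without CEBPB(V285A) array 1, in a range up to 23.8 without any 1 array. TTGCATCA was −0.40 with recomputed scores and −0.25 after normexp, and GTAATCGT −0.23 after normexp. The cause of these changes was not tested.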
